A study of Mus musculus with 3 samples.

Results

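Platelet-derived growth factors (PDGFs) and their receptors were followed as a set of 6 genes, out of 32285 genes listed, in single-cell RNA sequencing of the mouse kidney at E15.5 (embryonic day). The set was taken by symbol and holds 4 ligand genes, *Pdgfa*, *Pdgfb*, *Pdgfc* and *Pdgfd*, and 2 receptor genes, *Pdgfra* and *Pdgfrb*, all of which had counts in all 3 libraries. The *Enl*-T1 embryos (Enl flox-T1/+ Wt1 GFPCre/+) carried, in heterozygous form, a Wilms tumour insertion in the YEATS domain of ENL (gene *Mllt1*), a reader of acylated histones. *Enl*-WT embryos (Enl+/+ Wt1 GFPCre/+) carried no such allele, and the *Wt1* GFPCre knock-in, which inactivates 1 copy of *Wt1*, was present in all 3 groups. Cre from this allele acts where the *Wt1* promoter is on, in cells of the nephron and stroma lineages. In the third group (T1-TDI), mothers of *Enl*-T1 embryos had received TDI-11055, an inhibitor of acyl-lysine binding by ENL, by mouth at 100 mg/kg daily from E10.5 to E14.5. The *Enl*-WT and *Enl*-T1 libraries are labelled as untreated, so T1-TDI had no vehicle-dosed control, and no treated *Enl*-WT library was included. Kidneys of 2 embryos went into the *Enl*-WT library and those of 4 embryos into the *Enl*-T1 library. The study gives no embryo number for T1-TDI. Each group was 1 library, with no map from cells to embryos. No test between groups was therefore possible, and all intervals below cover counting error only.

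PDGF ligands are secreted as disulphide-linked dimers that bind and pair tyrosine kinase receptors on neighbouring cells. PDGF-A binds PDGFRα, PDGF-B binds both receptors, and PDGF-C and PDGF-D are secreted in a latent form whose CUB domain has to be cleaved off before they can bind. In the developing kidney, epithelial PDGF-A acts on PDGFRα-bearing stroma, and endothelial PDGF-B recruits PDGFRβ-bearing mesangial cells and pericytes into the glomerulus and onto vessels.

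Barcodes with 1000 to 6000 genes and at most 10% mitochondrial counts were kept, which left 5233 (*Enl*-WT), 4144 (*Enl*-T1) and 2754 (T1-TDI). Depth differed between libraries, with a median of 5090, 9391 and 16931.5 unique molecular identifiers (UMIs) per kept barcode. Cells were clustered without the 6 genes and assigned to stroma, nephron, ureteric and endothelial lineages by marker genes. Another 9, 18 and 5 immune cells were too few to be compared and are left out below. The stroma held 870, 1397 and 272 cells in the 3 libraries in the order above, and the order *Enl*-WT, *Enl*-T1, T1-TDI is used throughout. Nephron cells numbered 2218, 1298 and 1340, ureteric cells 1741, 1175 and 1022, and endothelial cells 395, 256 and 115. The 7 stroma markers summed to between 2278 and 3895 counts per 1000000 UMIs (CPM) in the stroma of the 3 libraries and to between 16.0 and 84.0 CPM in the ureteric lineage. Haemoglobin and other red-cell markers reached 3415 CPM in the stroma and 3007 CPM in the nephron. Between 5 and 8 kept barcodes were shared by each pair of libraries. By *Xist* and Y-linked counts, 26.5%, 73.3% and 35.1% of cells were called female and 46.5%, 16.5% and 35.4% male. The other cells were unclear. The sex makeup thus differed between the pools.

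Levels (CPM) compare cells for 1 gene. They do not compare genes with one another, since the counts come from transcript 3′ ends and were not scaled by length. A class held more than 1 cell state, and fewer expressing cells cannot be told apart from less RNA per cell in a summed level.

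Averaged over the libraries, each ligand had its highest level outside the stroma, and both receptors had theirs in it. *Pdgfa* was highest in the nephron, where it measured 187 (95% interval 179–194), 178 (171–185) and 143 (138–148) CPM. The ureteric lineage followed with 80.4, 66.2 and 59.6 CPM, then the stroma with 49.7, 26.7 and 19.5 CPM and the endothelium with 22.5, 13.5 and 17.0 CPM. The nephron, ureteric and stroma levels were separated by their intervals in every library, whereas stroma and endothelium overlapped in T1-TDI. *Pdgfc* ran through the lineages in the same way, with 42.5 (39.1–46.1), 45.0 (41.6–48.6) and 41.2 (38.4–44.2) CPM in the nephron and 25.4, 18.3 and 22.9 CPM in the ureteric lineage. *Pdgfc* in the stroma (10.3, 2.71 and 3.15 CPM) and endothelium (4.15, 3.46 and 2.84 CPM) was lower in each library.

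*Pdgfb* was an endothelial ligand in these kidneys, at 87.1 (76.7–98.5), 92.5 (82.2–104) and 86.3 (73.1–101) CPM in that lineage. The nephron came second in *Enl*-WT at 14.0 CPM (12.1–16.1, 194 UMIs) but held 7 and 18 UMIs in the other libraries. Ureteric *Pdgfb* lay between 2.00 and 3.76 CPM. *Pdgfd* was the ligand with the fewest counts, at 14.2 (10.2–19.2), 9.75 (6.62–13.8) and 6.24 (3.12–11.2) CPM in the endothelium. Stroma *Pdgfd*, at 9.30 (6.58–12.8), 9.48 (7.75–11.5) and 6.58 (4.17–9.88) CPM, overlapped with the endothelial level in each library, so the order of these lineages was not resolved. In nephron and ureteric cells *Pdgfd* stayed between 0.895 and 3.04 CPM.

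*Pdgfra* measured 228 (213–243), 185 (177–194) and 140 (128–153) CPM in the stroma and at most 4.84 CPM in the other 3 lineages. *Pdgfrb* measured 193 (179–207), 105 (98.7–111) and 85.9 (76.4–96.2) CPM in the stroma and at most 6.22 CPM in the other 3 lineages. Stroma gave 12.8%, 25.1% and 8.07% of all UMIs of the 4 lineages in the 3 libraries, yet it held 91.5%, 96.1% and 93.1% of *Pdgfra* UMIs and 87.5%, 95.9% and 90.6% of *Pdgfrb* UMIs. The plot of levels by lineage shows both receptors highest in the stroma, *Pdgfa* and *Pdgfc* in the nephron and *Pdgfb* in the endothelium. *Pdgfd* was not resolved between endothelium and stroma.

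**Figure D1:**
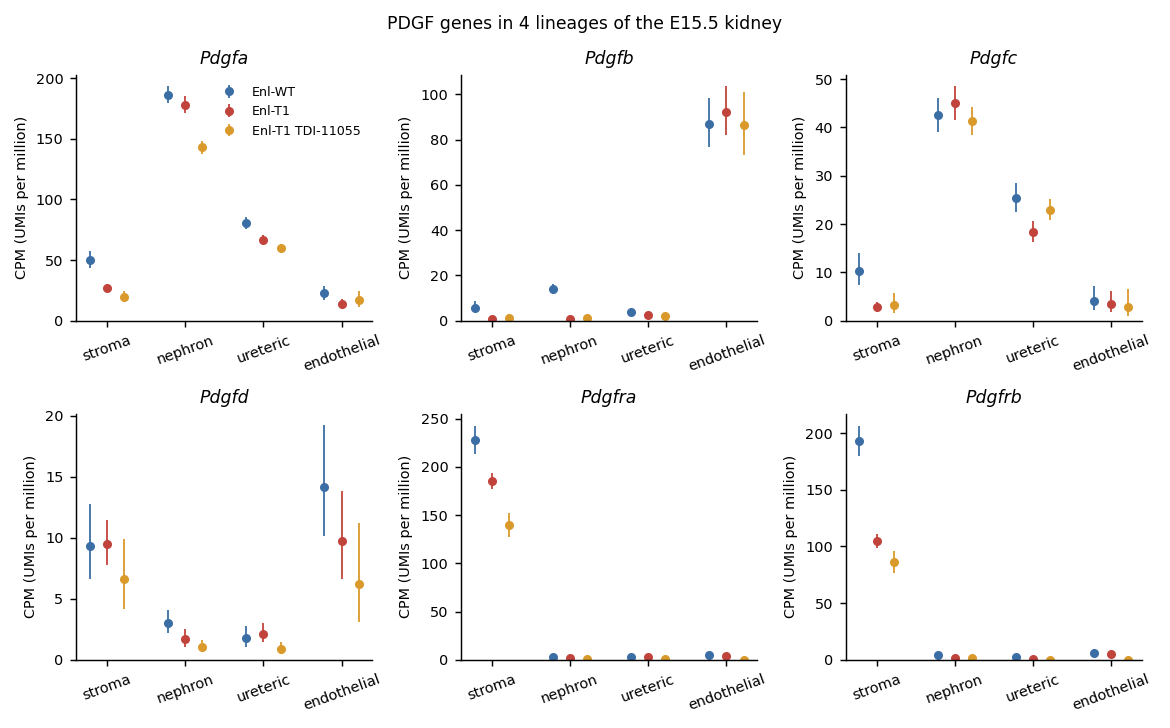
Level of each PDGF gene (CPM, linear axis from 0) in stroma, nephron, ureteric and endothelial cells of the 3 libraries; points are UMIs summed over the cells of a lineage and bars are exact 95% Poisson intervals. *Pdgfra* and *Pdgfrb* stood out in the stroma, *Pdgfa* and *Pdgfc* in the nephron and *Pdgfb* in the endothelium.

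Over the 12 sums of lineage and library, log2(CPM + 1) of *Pdgfa* and *Pdgfc* had a Pearson correlation of 0.967, and *Pdgfra* and *Pdgfrb* one of 0.985. *Pdgfc* was the gene nearest to *Pdgfa* among 10877 genes with a mean of at least 5 CPM, ahead of *Rdh10* (0.949) and *Tfdp2* (0.948). For *Pdgfc*, *Pdgfa* led *Hdgf* (0.965) and *Zbtb12* (0.961). The nearest genes to *Pdgfra* were *Col6a1* (0.992), *Ddr2* (0.990) and *Col6a2* (0.990), and those to *Pdgfrb* were *Acta2* (0.990), *Mrvi1* (0.986) and *Pdgfra*. *Pdgfb* ran closest to *C130074G19Rik* (0.982), *Gpr182* (0.981) and *Frmd4b* (0.979), and *Pdgfd* to *Fbxl7* (0.982), *Itpripl2* (0.968) and *Kctd12* (0.967). The 12 points share libraries, depth and lineage, and the values describe these sums only.

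The upstream letters of the paired ligands *Pdgfa* and *Pdgfc*, and of the stroma receptor *Pdgfra*, are shown as RefSeq gives them (GRCm38.p6), since these 3 genes carry most of the comparisons below. Each run is 250 bases, 5′ to 3′ on the strand of the gene, and ends at the base before a listed transcription start. Capitals mark 3 motifs searched on both strands, which are the TATAAA of TATA boxes, the CACCC that zinc-finger factors of the KLF family bind, and the GC box GGGCGG. *Pdgfa* had 2 listed starts, *Pdgfc* and *Pdgfra* 1 each.
*Pdgfa*, chr5:138994945-138995194, minus strand: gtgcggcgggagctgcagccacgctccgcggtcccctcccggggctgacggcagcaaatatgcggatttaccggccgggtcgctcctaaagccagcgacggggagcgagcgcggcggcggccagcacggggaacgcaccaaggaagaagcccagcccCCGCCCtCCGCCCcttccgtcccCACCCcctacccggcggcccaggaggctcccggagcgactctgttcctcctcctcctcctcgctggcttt
*Pdgfa*, chr5:138994282-138994531, minus strand: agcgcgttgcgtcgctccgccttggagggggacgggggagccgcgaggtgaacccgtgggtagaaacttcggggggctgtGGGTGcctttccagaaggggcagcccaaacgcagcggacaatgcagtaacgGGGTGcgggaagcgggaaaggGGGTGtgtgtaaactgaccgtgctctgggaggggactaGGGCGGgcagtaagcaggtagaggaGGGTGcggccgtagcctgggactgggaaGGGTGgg
*Pdgfc*, chr3:81036166-81036415, plus strand: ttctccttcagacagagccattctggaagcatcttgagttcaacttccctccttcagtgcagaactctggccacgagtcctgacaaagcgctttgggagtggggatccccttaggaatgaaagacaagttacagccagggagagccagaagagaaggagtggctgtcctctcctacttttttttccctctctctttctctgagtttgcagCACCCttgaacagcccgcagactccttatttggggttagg
*Pdgfra*, chr5:75152001-75152250, plus strand: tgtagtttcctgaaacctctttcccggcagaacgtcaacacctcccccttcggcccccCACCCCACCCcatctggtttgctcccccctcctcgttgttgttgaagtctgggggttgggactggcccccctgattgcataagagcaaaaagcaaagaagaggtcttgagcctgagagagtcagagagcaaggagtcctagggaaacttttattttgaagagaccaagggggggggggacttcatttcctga
Both *Pdgfa* windows were richer in G and C (72.4% and 66.4%) than those of *Pdgfc* (50.8%) and *Pdgfra* (54.4%). GGGCGG was present on either strand in both *Pdgfa* windows and absent from the windows of *Pdgfc* and *Pdgfra*, against 32.7% of 32851 listed promoters that hold it. CACCC was in all 4 windows and in 52.0% of promoters, and TATAAA in none of the 4 and in 12.4% of promoters. The *Pdgfd* window, which is not printed, differed from these, with 1 TATAAA and no CACCC. These are matches of letters only.

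By GENCODE M21 on GRCm38, *Pdgfa* (ENSMUSG00000025856) lies on chromosome 5, 138976014 to 138997370, minus strand. *Pdgfb* (ENSMUSG00000000489) lies on chromosome 15, 79995874 to 80014977, minus strand, and *Pdgfc* (ENSMUSG00000028019) on chromosome 3, 81036416 to 81214040, plus strand. *Pdgfd* (ENSMUSG00000032006) spans 6168584 to 6378850 of chromosome 9 and *Pdgfra* (ENSMUSG00000029231) 75152292 to 75198215 of chromosome 5, both on the plus strand. *Pdgfrb* (ENSMUSG00000024620) spans 61045150 to 61085061 of chromosome 18, plus strand. The union of exons was longest for *Pdgfra*, at 10024 bases, and between 3119 and 5478 bases for the other genes.

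Ratios between libraries need a reference, because the CPM ratio of a typical gene was not 1. The median log2 ratio of *Enl*-T1 over *Enl*-WT across all genes with a mean of at least 5 CPM was −0.31 in the stroma, −0.41 in the nephron, −0.30 in the ureteric lineage and −0.31 in the endothelium, and ribosomal protein genes took a median of 16.5%, 26.8% and 27.9% of UMIs per cell in the 3 libraries. For T1-TDI over *Enl*-T1 the medians lay between −0.06 and 0.03. Ratios are therefore also given relative to these medians, and a gene is counted as past the fold when it was at least 1.5-fold from the median with its counting interval on one side of it.

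In the stroma, 5 of the 6 genes were high enough to be compared between *Enl*-T1 and *Enl*-WT, and 2 of them, *Pdgfa* and *Pdgfc*, were past the fold, both lower in *Enl*-T1. Among all genes compared there, 26.3% were past it. In the nephron 1 of 3 genes was past the fold (*Pdgfb*, lower), against 32.3% of all genes. None of 2 genes in the ureteric lineage (23.1% of all genes) and none of 4 in the endothelium (21.1%) were past it. Between T1-TDI and *Enl*-T1 no PDGF gene was past the fold, of 4 compared in the stroma (21.6% of all genes), 2 in the nephron (13.7%), 2 in the ureteric lineage (17.3%) and 3 in the endothelium (19.7%). These counts, at 0 to 2 genes per lineage, did not set the family apart from the background.

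The level of *Pdgfa*, the ligand of PDGFRα, differed between nephron classes. It was highest in cells of the distal tubule and loop of Henle type, at 359 (340–378), 303 (274–333) and 272 (254–290) CPM. Induced progenitors (NP2-like) carried 237 (213–263), 259 (221–301) and 188 (168–210) CPM. Uncommitted progenitors (NP1-like), marked by *Six2* and *Cited1*, had the lowest level of the named classes in each library, at 54.1 (43.1–66.9), 96.5 (83.2–111) and 68.5 (60.6–77.1) CPM. In *Enl*-WT this interval met that of podocyte-like cells. The NP2-like level was thus above the NP1-like level in each library, by intervals that did not meet. The highest class was not resolved in *Enl*-T1, where the distal tubule and loop interval met that of NP2-like cells. Proximal tubule-like cells were nearly as high in that library.

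Summed over the nephron, *Pdgfa* in *Enl*-T1 was 0.955 (0.903–1.01) of *Enl*-WT, or 1.27 (1.20–1.34) relative to the median gene. The makeup of the nephron differed beside it: distal tubule and loop cells gave 52.4%, 16.3% and 32.9% of nephron *Pdgfa* UMIs. With clusters weighted alike across libraries, the ratio was 1.21 (1.13–1.29) and the relative ratio 1.55. NP1-like cells of *Enl*-T1 had 1.79 (1.37–2.34) times the *Enl*-WT level, a relative ratio of 2.32 (1.79–3.04). In distal tubule and loop cells the ratio was 0.845 (0.755–0.944), which equalled the median gene with a relative ratio of 1.00 (0.896–1.12). The own markers of NP1-like cells summed to 1518, 675 and 1139 CPM and those of distal tubule and loop cells to 1816, 733 and 867 CPM, so the classes were less marked in *Enl*-T1; what this adds to the ratios was not tested.

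With TDI-11055, nephron *Pdgfa* was 0.803 (0.760–0.848) of untreated *Enl*-T1 as summed and 0.778 with clusters weighted alike. NP1-like cells had a ratio of 0.709 (0.587–0.859), NP2-like cells one of 0.727 (0.600–0.883) and distal tubule and loop cells one of 0.898 (0.798–1.01). The NP1-like level of T1-TDI, 68.5 CPM, lay between those of the other libraries. After thinning every cell to 2000 UMIs, 24.7%, 26.4% and 22.7% of nephron cells had a *Pdgfa* UMI.

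Outside the nephron, *Pdgfa* was read in all ureteric classes. Trunk and collecting duct cells had 109, 88.2 and 95.6 CPM, urothelium-like cells 91.6, 81.1 and 76.7 CPM, and tip cells 61.4 (46.0–80.3), 56.6 (43.0–73.1) and 37.1 (30.8–44.3) CPM. The tip was lowest in every library, though its interval met that of urothelium-like cells in *Enl*-WT and *Enl*-T1. Its T1-TDI level was 0.656 (0.476–0.913) of *Enl*-T1, whereas for trunk and collecting duct the ratio was 1.08 (0.877–1.34). Over the whole ureteric lineage *Enl*-T1 was 0.823 of *Enl*-WT, 1.01 relative to the median.

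In the stroma, *Pdgfa* was highest in cells of the renin and mesangial type, named by *Ren1*, *Akr1b7* and *Rgs5*. These measured 152 (128–180), 108 (86.2–134) and 71.8 (47.3–104) CPM, against at most 19.7 CPM in *Foxd1* stroma-like cells and 42.2 CPM in medullary stroma-like cells. This class gave 68.5%, 27.7% and 39.7% of stroma *Pdgfa* UMIs. The class was 20.6%, 6.66% and 8.09% of stroma cells. The summed ratio of *Enl*-T1 over *Enl*-WT, 0.538 (0.448–0.646), was 0.665 relative to the median, but with clusters weighted alike it was 0.872 (0.718–1.06) and 1.08 relative to the median. The share of renin and mesangial-like cells and their *Pdgfa* level both differed between the libraries, and the part of each in the summed ratio was not tested. In T1-TDI, 5 cells held 42.6% of the 68 stroma *Pdgfa* UMIs.

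*Pdgfc*, a latent ligand of PDGFRα, differed from *Pdgfa* in its order between NP1-like and NP2-like cells. NP1-like cells were the highest named class, at 99.1 (84.1–116), 59.7 (49.3–71.7) and 55.8 (48.7–63.6) CPM. NP2-like cells were at 23.1 (16.1–32.2), 9.24 (3.39–20.1) and 10.4 (6.08–16.7) CPM and distal tubule and loop cells at 23.6 (18.9–29.0), 13.1 (7.79–20.8) and 10.3 (7.16–14.46) CPM. The NP1-like level stood above both in each library, while those of NP2-like and of distal tubule and loop cells overlapped. Podocyte-like cells held 4, 6 and 0 *Pdgfc* UMIs. The near match of *Pdgfa* and *Pdgfc* over lineages thus did not extend to classes of the nephron. Of the named classes, NP1-like cells measured lowest in *Pdgfa*, not resolved from podocyte-like cells in *Enl*-WT, and highest in *Pdgfc*.

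The *Pdgfc* ratio between *Enl*-T1 and *Enl*-WT turned with the weighting. As summed over the nephron it was 1.06 (0.944–1.18), and 1.41 relative to the median. With clusters weighted alike it was 0.669 (0.592–0.755), and 0.860 relative to the median. Within NP1-like cells it was 0.602 (0.469–0.772), with a relative ratio of 0.783 (0.610–1.00). Some unnamed clusters, such as those led by *Rrm2* and *Ccne2* (83.8, 51.5 and 64.6 CPM) and by *Saa1* and *C1qtnf12* (78.5, 60.5 and 56.7 CPM), were also highest in *Enl*-WT. The former had no class marker among its leading genes. The latter had the NP2 marker *Wnt4* among them, but the NP2 markers as a set were not raised in it. In each library the *Pdgfc* level of this *Saa1*-led cluster was nearer to that of NP1-like than of NP2-like cells. T1-TDI over *Enl*-T1 was 0.917 in the summed nephron and 0.934 (0.743–1.18) in NP1-like cells, within counting error of no difference.

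The bud mirrored the NP1-like and NP2-like cells in its own order, with *Pdgfc* at 44.0 (31.2–60.4), 28.3 (18.9–40.6) and 27.9 (22.5–34.3) CPM in tip cells and 10.2, 11.3 and 10.2 CPM in trunk and collecting duct cells. Tip cells therefore had less *Pdgfa* and more *Pdgfc* than the trunk, as NP1-like cells had next to NP2-like cells. Over all ureteric cells *Pdgfc* in *Enl*-T1 was 0.721 of *Enl*-WT, and T1-TDI was 1.25 of *Enl*-T1. With clusters weighted alike the first ratio was 0.782 (0.658–0.930), or 0.959 (0.807–1.14) relative to the median. The second was then 1.07 (0.907–1.25), an interval that spans 1. Stroma *Pdgfc* rested on 42, 30 and 11 UMIs. Its *Enl*-T1 over *Enl*-WT ratio of 0.263 (0.159–0.431) was 0.326 relative to the median and nearly the same, 0.267, with clusters weighted alike. A dividing cluster led by replication histones (*Hist1h2ae*, *Hist1h2ap*) held 16, 4 and 0 of these UMIs.

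**Figure D2:**
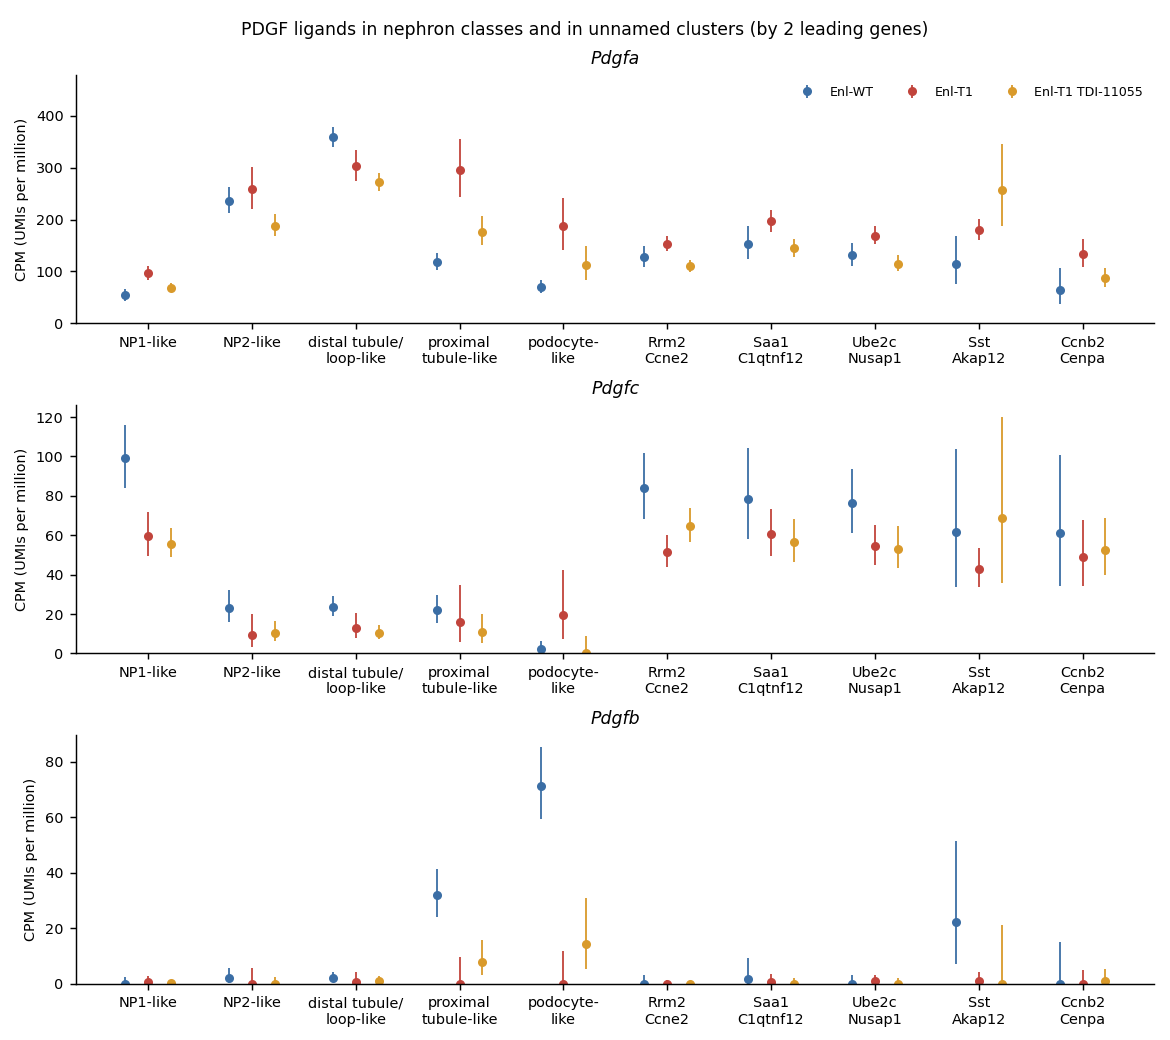
Level (CPM, linear axes from 0) of *Pdgfa*, *Pdgfc* and *Pdgfb* in the 5 named nephron classes and in some unnamed nephron clusters, given by their 2 leading genes, for the 3 libraries; bars are exact 95% Poisson intervals. *Pdgfa* was lower and *Pdgfc* higher in NP1-like than in NP2-like cells, and *Pdgfb* was seen mainly in podocyte-like and proximal tubule-like cells of *Enl*-WT.

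*Pdgfb*, which pairs both receptors and guides mural cells, was carried by the blood endothelium. The cluster led by *Fabp4*, *Cdh5* and *Flt1* (378, 233 and 113 cells) measured 90.4 (79.6–102), 98.4 (87.5–110) and 87.9 (74.5–103) CPM. A smaller endothelial cluster led by *Ccl21a*, *Mmrn1* and *Nrp2* held 0, 3 and 0 UMIs in 17, 23 and 2 cells. The lineage ratio of *Enl*-T1 over *Enl*-WT was 1.06 (0.894–1.26), or 1.32 (1.11–1.57) relative to the median, and that of T1-TDI over *Enl*-T1 was 0.933, or 0.974 relative to the median. Neither kept its direction. The log2 ratio of *Enl*-T1 over *Enl*-WT, 0.09, was −0.65 when cells were thinned, −0.28 in female cells and 0.63 in male cells, and that of T1-TDI over *Enl*-T1, −0.10, was 0.31 when thinned and −0.71 under a stricter cell filter. Thinned to 2000 UMIs, 16.4%, 11.3% and 13.0% of endothelial cells had a *Pdgfb* UMI.

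A further source of *Pdgfb* was seen in differentiated nephron cells of *Enl*-WT. Podocyte-like cells held 120, 0 and 6 UMIs, or 71.4 (59.2–85.4), 0 (0–11.9) and 14.1 (5.19–30.8) CPM, and gave 61.9% of the nephron's *Pdgfb* UMIs in *Enl*-WT. Proximal tubule-like cells held 57, 0 and 7 UMIs, or 31.9 (24.2–41.3), 0 (0–9.75) and 7.69 (3.09–15.9) CPM, and gave another 29.4%. NP1-like cells had 0, 1 and 1 UMI. The summed nephron ratio of *Enl*-T1 over *Enl*-WT was 0.0348 (0.0138–0.0732) and that of T1-TDI over *Enl*-T1 was 1.94 (0.772–5.49), an interval that spans 1.

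These cells were not alike in the 3 libraries. Podocyte-like cells numbered 223, 41 and 28, and their own 6 markers summed to 9244, 184 and 3200 CPM. Proximal tubule-like cells numbered 279, 32 and 77, with own markers at 4271, 344 and 618 CPM. The *Enl*-T1 cells placed in these classes thus nearly lacked the genes that name them, and the *Pdgfb* values give the class as placed, not equally mature cells. In the same cells *Pdgfa* stood at 70.3, 187 and 113 CPM (podocyte-like) and 118, 296 and 177 CPM (proximal tubule-like), with the highest level in *Enl*-T1. In the stroma, renin and mesangial-like cells held 95.7% of the 23 *Enl*-WT *Pdgfb* UMIs, at 24.1 (15.1–36.4), 3.96 (0.817–11.6) and 7.97 (1.64–23.3) CPM.

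*Pdgfd*, the latent ligand of PDGFRβ, was read in vessels and in the stroma. Blood endothelium had 14.7 (10.6–19.95), 9.81 (6.57–14.1) and 6.36 (3.18–11.4) CPM. Medullary stroma-like cells, marked by *Alx1*, *Wnt4* and *Lef1*, had 14.1 (5.65–29.0), 15.47 (10.8–21.4) and 19.7 (7.92–40.6) CPM. They held 7 of 38, 36 of 105 and 7 of 23 stroma *Pdgfd* UMIs, so most lay in other stroma cells. Within the medullary stroma-like class, 7 of 7, 25 of 36 and 6 of 7 UMIs were in the cluster led by *Gap43* and *Nrxn3*, where *Pdgfd* measured 35.0, 22.5 and 28.4 CPM. Renin and mesangial-like cells, the cells richest in *Pdgfrb*, held 4, 3 and 0 *Pdgfd* UMIs.

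The endothelial *Pdgfd* ratio between *Enl*-T1 and *Enl*-WT was 0.688 (0.417–1.12), that between T1-TDI and *Enl*-T1 0.641, on 41, 31 and 11 UMIs, and the first interval spans 1. When each cell was assigned by its own lineage markers, the first log2 ratio went from −0.54 to 0.19. Stroma *Pdgfd* had ratios of 1.02 and 0.695. At these counts a difference between libraries was not detectable.

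*Pdgfra*, the receptor of PDGF-A and PDGF-C, marked the stroma outside the renin and mesangial-like cells. Medullary stroma-like cells measured 392 (339–451), 279 (258–302) and 189 (146–239) CPM and *Foxd1* stroma-like cells 347 (305–394), 191 (171–213) and 173 (148–203) CPM. Renin and mesangial-like cells had 46.0 (33.1–62.1), 19.8 (11.1–32.7) and 37.2 (20.3–62.4) CPM. The 4 larger unnamed clusters lay between, from 195 to 283 CPM in *Enl*-WT, 143 to 199 CPM in *Enl*-T1 and 102 to 182 CPM in T1-TDI. A small cluster led by the epithelial genes *Calb1*, *Epcam* and *Wfdc2* (24, 6 and 2 cells) had 159, 56.6 and 75.5 CPM. The order of medullary and *Foxd1* stroma-like cells was resolved in *Enl*-T1 only, since their intervals overlapped in the other libraries.

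The *Enl*-T1 over *Enl*-WT ratio of *Pdgfra* was 0.814 (0.753–0.880) in the summed stroma, which was 1.01 (0.931–1.09) relative to the median gene. With clusters weighted alike it was 0.647 (0.597–0.702), or 0.80 relative to the median. In renin and mesangial-like cells 42 and 15 UMIs gave 0.431 (0.222–0.794). The *Foxd1* stroma-like class had a ratio of 0.551 (0.466–0.652), or 0.665 (0.563–0.787) relative to the median. This class held a cluster led by *Ntn1* and *Igfbp6*, with 325, 191 and 185 CPM, and one led by *Npy* and *Egfl6*, with 460, 192 and 136 CPM. In medullary stroma-like cells the ratio was 0.713 (0.607–0.841) and 0.903 (0.768–1.06) relative to the median. The ratio intervals of the named classes overlapped, so their order was not resolved. The study named *Pdgfra* among lowered genes of *Foxd1* stroma from these same libraries, so the class value is not independent of that choice.

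The ratio of *Pdgfra* depended on the genes it was set against. Relative to genes of like exonic length (the same decile), the log2 ratio of the summed stroma was 0.24 where the CPM ratio gave −0.30, so the direction turned. The own markers of *Foxd1* stroma-like cells summed to 1488, 753 and 886 CPM, which moved with the *Pdgfra* ratio, and their part in it was not tested. T1-TDI over *Enl*-T1 was 0.754 (0.682–0.832) in the summed stroma, 0.740 relative to the median and 0.808 with clusters weighted alike. By class it was 0.907 (0.747–1.10) in *Foxd1* stroma-like and 0.675 (0.517–0.869) in medullary stroma-like cells, the latter on 29 treated cells.

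*Pdgfrb*, the receptor of PDGF-B and PDGF-D, was highest in renin and mesangial-like cells, at 483 (439–530), 497 (448–550) and 330 (274–393) CPM. The unnamed cluster led by *Clca3a1* and *Lox* came next, at 263 (204–333), 149 (129–171) and 116 (80.6–163) CPM. Medullary stroma-like cells had 113 (85.0–146), 83.4 (72.1–96.0) and 56.3 (34.4–86.9) CPM and *Foxd1* stroma-like cells 46.4 (32.0–65.2), 33.0 (25.1–42.7) and 27.1 (17.5–40.0) CPM. The class with the most *Pdgfrb* was thus the one with the least *Pdgfra* in each library. From 22.4%, 6.83% and 10.8% of stroma UMIs, renin and mesangial-like cells gave 56.0%, 32.4% and 41.3% of stroma *Pdgfrb* UMIs.

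**Figure D3:**
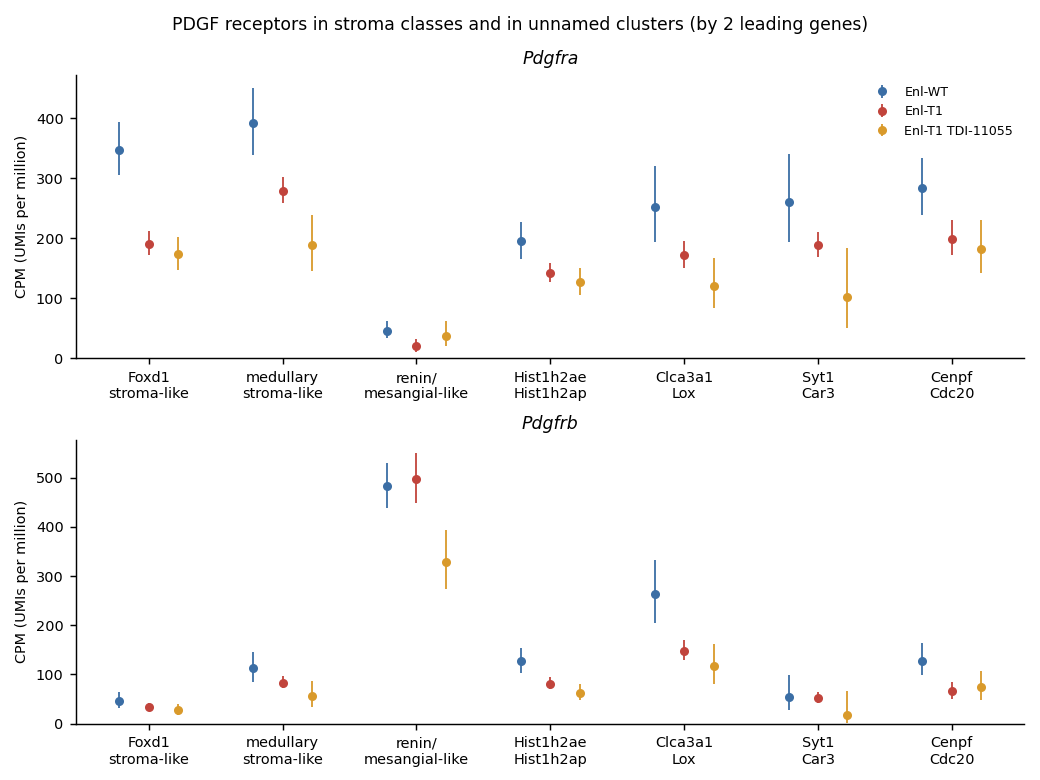
Level (CPM, linear axes from 0) of *Pdgfra* and *Pdgfrb* in the 3 named stroma classes and 4 unnamed stroma clusters, given by their 2 leading genes, for the 3 libraries; bars are exact 95% Poisson intervals. Renin and mesangial-like cells had the lowest *Pdgfra* and the highest *Pdgfrb* in each library.

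As summed, stroma *Pdgfrb* in *Enl*-T1 was 0.543 (0.496–0.595) of *Enl*-WT, or 0.671 (0.613–0.736) relative to the median, just short of the 1.5-fold limit. With clusters weighted alike the ratio was 0.797 (0.723–0.880), or 0.985 (0.893–1.09) relative to the median. In renin and mesangial-like cells it was 1.03 (0.895–1.18), or 1.25 (1.09–1.44) relative to the median, even though their own markers were at 5890, 2093 and 1619 CPM. *Foxd1* stroma-like cells gave 0.711 (0.456–1.13) and medullary stroma-like cells 0.741 (0.548–1.02). *Pdgfrb* was also lower in *Enl*-T1 in the unnamed clusters led by *Clca3a1*, by *Hist1h2ae* (127 to 81.6 CPM) and by *Cenpf* (127 to 66.5 CPM). Both the share of renin and mesangial-like cells and the level in other clusters thus moved with the summed ratio, and their parts in it were not tested. T1-TDI over *Enl*-T1 was 0.821 (0.721–0.933) as summed and 0.727 with clusters weighted alike, and 0.663 (0.537–0.815) in renin and mesangial-like cells, on 22 treated cells.

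Weighting acted in opposite directions on the receptors. It took the *Enl*-T1 over *Enl*-WT ratio of *Pdgfra* further below 1 and that of *Pdgfrb* closer to 1, as the plot of ratios by weighting shows. The *Pdgfra* share of the UMIs of both receptors was 54.2%, 63.9% and 61.9% in the summed stroma, higher in both *Enl*-T1 libraries than in *Enl*-WT. By class it was 88.2%, 85.3% and 86.5% in *Foxd1* stroma-like cells and 77.7%, 77.0% and 77.0% in medullary stroma-like cells. In renin and mesangial-like cells it was 8.70% (6.34–11.6), 3.84% (2.16–6.25) and 10.1% (5.66–16.4), lower in *Enl*-T1 by intervals that did not meet those of *Enl*-WT.

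**Figure D4:**
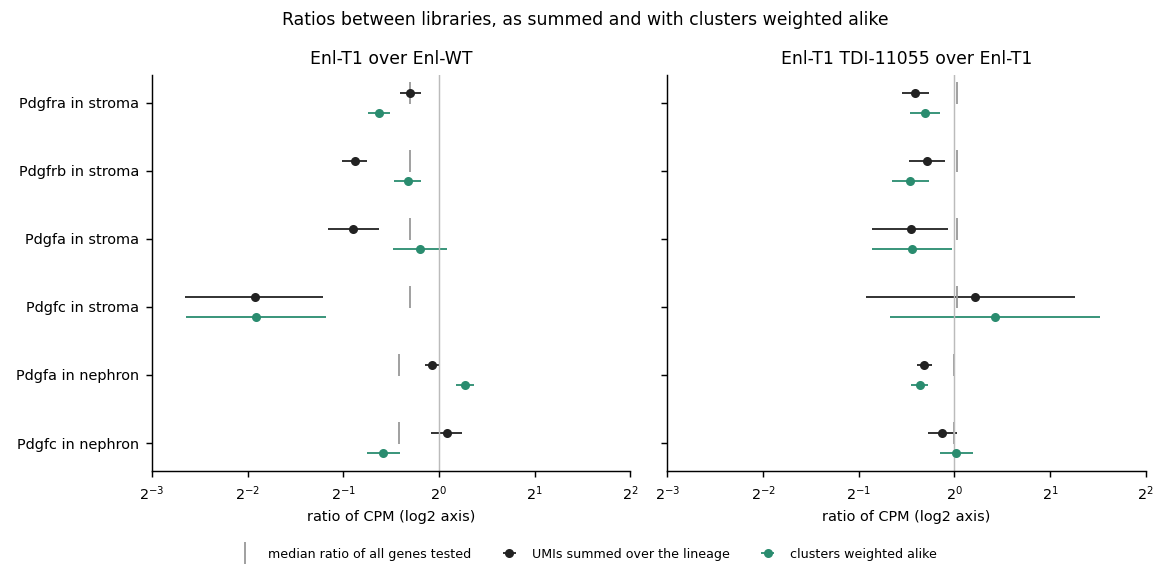
Ratios of CPM between libraries on a log2 axis, *Enl*-T1 over *Enl*-WT on the left and T1-TDI over *Enl*-T1 on the right, for UMIs summed over a lineage and for clusters weighted alike; bars are 95% counting intervals and grey ticks the median ratio of all genes tested. On the left, weighting moved *Pdgfra* in stroma from 0.814 to 0.647, *Pdgfrb* from 0.543 to 0.797 and *Pdgfc* in nephron from 1.06 to 0.669.

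Shares of cells with a receptor UMI were compared after thinning each cell to 2000 UMIs, which left out 22, 3 and 1 stroma cells of lower depth. *Pdgfra* was found in 34.9% (31.7–38.2), 27.6% (25.3–30.05) and 18.5% (14.0–23.6) of stroma cells. Ureteric cells, taken as background, had it in 0.409%, 0.427% and 0.0989% of cells. *Pdgfrb* was found in 25.9% (23.0–29.0), 16.2% (14.3–18.3) and 9.96% (6.67–14.2) of stroma cells and in 0.409%, 0.342% and 0% of ureteric cells, the last allowing up to 0.364%. Both receptors were well above that background in each library. Without thinning, *Pdgfra* was found in 54.7%, 65.2% and 57.7% and *Pdgfrb* in 42.6%, 35.9% and 38.6% of stroma cells, at median depths of 4034, 6924 and 13284 UMIs in stroma and 5227, 11709 and 19318.5 UMIs in ureteric cells.

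By class, thinned *Pdgfra* shares were 48.2%, 30.4% and 24.7% in *Foxd1* stroma-like cells and 53.4%, 35.6% and 20.7% in medullary stroma-like cells. *Pdgfrb* was found in 60.2%, 59.1% and 36.4% of renin and mesangial-like cells, and 2.60% to 9.52% of *Foxd1* stroma-like cells. UMIs of both receptors in 1 stroma cell were seen in 5.42%, 4.81% and 1.11% of cells, where the product of the single shares gives 9.06%, 4.48% and 1.84%. Over the whole *Enl*-WT stroma the receptors thus met in fewer cells than that product, but not clearly so within its named classes. There the share was 4.17% (1.69–8.40) beside a product of 4.59% in *Foxd1* stroma-like cells. It was 6.77% (3.14–12.5) beside 7.63% in medullary stroma-like and 3.41% (1.26–7.27) beside 5.13% in renin and mesangial-like cells. Neither was found in 44.6%, 61.0% and 72.7% of thinned stroma cells, which at this depth does not show that these cells lack both.

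**Figure D5:**
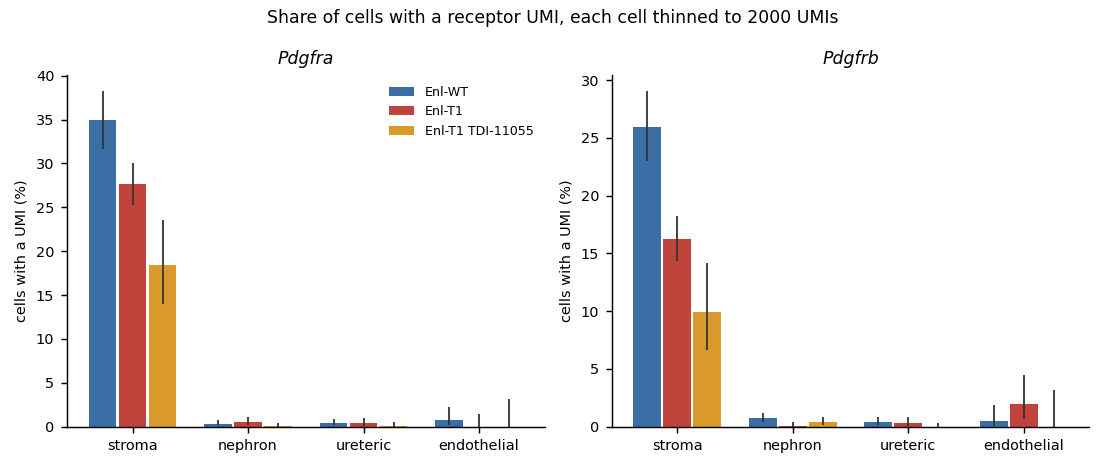
Percent of cells with a *Pdgfra* or *Pdgfrb* UMI in stroma, nephron, ureteric and endothelial cells of the 3 libraries, each cell thinned to 2000 UMIs; bars start at 0 and lines are exact 95% Clopper-Pearson intervals. Stroma shares ran from 34.9% to 18.5% for *Pdgfra* and from 25.9% to 9.96% for *Pdgfrb* across *Enl*-WT, *Enl*-T1 and T1-TDI, with other lineages near 0.

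The few receptor UMIs outside the stroma were set beside the stroma collagens *Col1a1*, *Col1a2* and *Col3a1*, whose summed level was 3068, 3414 and 1794 CPM in stroma and 30.4, 41.1 and 3.47 CPM in ureteric cells. Per 1000 collagen UMIs, *Pdgfra* had 74.2 (69.4–79.3), 54.3 (51.9–56.7) and 77.9 (70.9–85.4) UMIs in stroma and 91.2 (61.0–132), 70.6 (51.0–95.6) and 197 (99.7–360) in ureteric cells. In *Enl*-WT and *Enl*-T1 the ureteric ratio overlapped that of the stroma, and the part of free stroma RNA in these counts was not tested. Leaving out a ureteric cluster led by *Meis2*, *Vcan* and *Tpm2* lowered ureteric *Pdgfra* from 2.77, 2.90 and 0.684 CPM to 0.968, 1.28 and 0.691 CPM. Distal tubule and loop cells had 6.096 (3.86–9.15), 6.57 (3.004–12.5) and 4.87 (2.78–7.91) *Pdgfra* CPM. Podocyte-like cells had *Pdgfrb* at 13.1 (8.21–19.8), 6.46 (0.783–23.3) and 9.43 (2.57–24.1) CPM, and the *Sst*-led nephron cluster at 48.5 (24.2–86.9), 2.82 (0.916–6.58) and 11.5 (1.39–41.4) CPM on 11, 5 and 2 UMIs.

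A list of 35 further genes of PDGF activation, transduction and attenuation was counted in the stroma, where 30 were high enough to be compared. In *Enl*-T1 over *Enl*-WT, 3 were past the fold and higher and 4 were lower, with a median over the list of −0.19 on the log2 scale relative to all genes. These 7 of 30 stand against 26.3% of all genes past the fold in the stroma, so their number is near the background. Lower were *Ptprj*, a receptor phosphatase that dampens PDGF receptor signalling (14.0 to 5.42 CPM), *Nrp1*, a co-receptor for several growth factors (276 to 138 CPM), and *Plcg1*, a phospholipase that docks on the receptors (54.6 to 27.5 CPM). Higher were *Pdgfrl*, a receptor-like gene (5.39 to 10.3 CPM), *Thbs1*, a matrix glycoprotein (52.9 to 84.8 CPM), and *Kit*, a receptor of the same kinase class (8.08 to 10.3 CPM). The *Kit* ratio of 1.27 (0.858–1.94) has an interval that spans 1, so *Kit* was resolved as higher only relative to the median gene.

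In T1-TDI over *Enl*-T1, 1 gene of the list was past the fold and higher, and 4 were lower, with a median of −0.21, against 21.6% of all genes. The higher gene was *Plat*, a protease that releases active PDGF-C (30.4 to 51.8 CPM). *Plat* was also among the lower genes of *Enl*-T1 over *Enl*-WT (60.0 to 30.4 CPM), so its T1-TDI level stayed below that of *Enl*-WT. The largest changes among the lower genes were those of *Thbs1* (84.8 to 26.1 CPM), the endocytic receptor *Lrp1* (105 to 63.3 CPM) and *Stat3* (110 to 67.9 CPM). In *Enl*-T1 over *Enl*-WT the list had 2 higher and 8 lower of 32 genes in the nephron, 1 and 3 of 29 in the ureteric lineage and 2 and 4 of 30 in the endothelium, where 32.3%, 23.1% and 21.1% of all genes were past the fold. In T1-TDI over *Enl*-T1 it had 0 and 5 of 29, 2 and 3 of 29, and 0 and 8 of 28, against 13.7%, 17.3% and 19.7% of all genes.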

How the data were processed

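Gene-by-barcode UMI counts, deposited by the authors as 1 unnormalized matrix per library, were used as given (Cell Ranger 6.1.2 and mm10 per the submitters' processing notes). Barcodes with 1000 to 6000 genes were kept where mitochondrial genes took 10% of UMIs or less, which are the limits of the study. The 3 libraries held 37221435, 63336586 and 76619303 UMIs in *Enl*-WT, *Enl*-T1 and T1-TDI, and 72.8%, 63.0% and 42.7% of their barcodes were kept. Cells were clustered in R 4.3.3 with Seurat 5.3.0 (anchor integration, 30 components, resolution 0.5; within lineages 20 components, resolution 0.8), leaving out 214 genes, which were the PDGF genes, 35 pathway genes, Hox, mitochondrial, ribosomal, haemoglobin and sex-linked genes. Classes were called X-like from marker lists, with at least 3 markers detected. No cluster was named erythroid, and 1 unnamed nephron cluster is not reported here. Doublets were left in, and Scrublet (scanpy 1.11.5) was used for an alternative without them.

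UMIs were summed per class and library and given as CPM with exact Poisson intervals. Ratios have exact intervals from the binomial split of the counts, and approximate Poisson ones with clusters weighted alike. Shares have Clopper-Pearson intervals. These cover counting error only (95%). With 1 library per group no test was made. Genes entered a comparison at a mean of at least 5 CPM, and the procedure was checked on simulated counts. Named were the 6 PDGF genes, up to 3 pathway genes per direction with the largest change among those past the fold, and the 3 most alike genes per member. Genes were matched to GENCODE M21 by identifier. RefSeq listed a promoter start for 4 of the 6 genes. The members, lists and markers were chosen with earlier results of these data known. Mutant and wild-type *Enl* transcripts cannot be separated in these counts, so the genotype was taken from the labels.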

Additional observations from a re-analysis of the deposited data

Results flagged for a closer look

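*Pdgfa*, *Pdgfb* and *Pdgfc* each lay on opposite sides of the median in 2 lineages between *Enl*-T1 and *Enl*-WT, as UMIs summed over the lineage and on the log2 scale relative to the median of all genes. *Pdgfa* was at 0.35 in the nephron and −0.59 in the stroma. *Pdgfb* was at 0.40 in the endothelium and −4.43 in the nephron. *Pdgfc* was at 0.49 in the nephron and −1.62 in the stroma. With clusters weighted alike the relative ratio was above 1 in both lineages for *Pdgfa* (1.55 in the nephron, 1.08 in the stroma) and below 1 in both for *Pdgfc* (0.860 and 0.329), and the endothelial log2 ratio of *Pdgfb* was −0.65 with cells thinned. With 1 library per group, none of these differences between lineages was tested.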

How the results depend on the processing

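Of 128 alternative values for the ratio of each PDGF gene in its highest lineage, 84 stayed within counting error of the reported ratio and 44 moved outside it. The sign differed from that of the reported ratio in 17 of the 128. All values here are log2 ratios. For *Enl*-T1 over *Enl*-WT, *Pdgfa* in the nephron (−0.07) was 0.35 under median-of-ratios scaling, 0.21 on totals without mitochondrial, ribosomal and haemoglobin genes, 0.19 against genes of like exonic length (the same decile), 0.063 with lineages from each cell's own markers, 0.27 with clusters weighted alike, −0.15 in female cells and −0.21 in male cells. *Pdgfb* in the endothelium (0.09) was 0.40 under median-of-ratios scaling, 0.39 against genes of like length, 0.35 under a stricter cell filter, −0.65 with cells thinned, −0.28 in female and 0.63 in male cells. *Pdgfc* in the nephron (0.08) was 0.49 under median-of-ratios scaling, 0.36 on reduced totals, 0.55 against genes of like length, −0.58 with clusters weighted alike and 0.25 in male cells. *Pdgfd* in the endothelium (−0.54) was 0.19 by each cell's markers. *Pdgfra* in the stroma (−0.30) had a reported interval on 1 side of 0 and changed sign under median-of-ratios scaling (0.0089) and against genes of like length (0.24), and was −0.12 on reduced totals, −0.42 by each cell's markers, −0.44 with cells thinned and −0.63 with clusters weighted alike. *Pdgfrb* in the stroma (−0.88) was −0.58, −0.51, −0.70, −0.69 and −0.33 under median-of-ratios scaling, like length, reduced totals, each cell's markers and clusters weighted alike.

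For T1-TDI over *Enl*-T1, *Pdgfa* (−0.32) was −0.53 against genes of like length, −0.47 under the stricter filter, −0.43 by each cell's markers, −0.16 with cells thinned and −0.17 in male cells. *Pdgfb* (−0.10) was −0.71 under the stricter filter, 0.31 with cells thinned and −0.63 in male cells. *Pdgfc* (−0.13) was −0.28 with cells thinned. *Pdgfra* (−0.41) was −0.23 against genes of like length, −0.56 with cells thinned and −0.018 in female cells. *Pdgfrb* (−0.28) was −0.72 under the stricter filter and −0.91 with cells thinned. The causes of these shifts were not tested. Clusters weighted alike, and levels without single clusters, were chosen after seeing the data. Without thinning, the difference in stroma cells with *Pdgfra*, *Enl*-T1 minus *Enl*-WT, was 10.4985 percentage points instead of −7.29, and that with *Pdgfrb*, T1-TDI minus *Enl*-T1, 2.67 instead of −6.25. Removing doublets and clustering on all variable genes moved none of these ratios or shares. At 2-fold, 3.13% to 13.9% of all genes were past the limit. No paired analysis was possible because each group was 1 library. Low counts limit *Pdgfd* in all lineages, and few cells (272) limit the stroma of T1-TDI.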
